A study of Mus musculus with 30 samples.

Results

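The genes described here are 10 genes of the choroid plexus epithelium, namely Ttr, Enpp2, Sostdc1, Kl, Folr1, Aqp1, Kcne2, Slc4a5, Clic6 and Otx2. They were chosen by gene name, with their joint variation between hypothalamic samples already known, and they are represented by 15 of the 41174 probes of the array. The samples came from adult male mice, Per3-/- animals (knockout) and their wild-type (WT) littermates on a C57Bl/6J background, all of which had been exposed to 17 cycles of 3.5 h light and 3.5 h dark and were killed in the light phase of the last cycle. RNA of the hypothalamic block, a piece of tissue cut around the optic chiasm, was measured in 8 WT and 8 knockout mice, and RNA of the whole eye in 7 WT and 7 knockout mice, with 1 array per mouse and tissue. In the knockout a selection cassette replaces part of the gene around an early exon in every cell of the body, so that the deletion is not limited to 1 cell type. Each value is the log2 of the background-subtracted signal minus the log2 of the 75th percentile of its array, so that 0 is the 75th percentile, and values of different probes are not comparable as levels.

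The choroid plexus is a fold of vascular tissue that hangs into the ventricles of the brain and is covered by a single layer of epithelium. This epithelium makes the cerebrospinal fluid by moving ions and water from the blood side to the ventricle, and it secretes carrier proteins and growth factor antagonists into the fluid. It borders the third ventricle at the roof of the diencephalon, above the hypothalamus. The pigment epithelium of the retina and the ciliary epithelium, which makes the aqueous humour, carry out related transport in the eye, and several of the 10 genes are known from those layers. Whole eyes contain no choroid plexus.

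The 250 bases before the annotated start of 4 of the genes are shown, because the genes were measured as a group that moved together and these windows allow their starts to be compared. Kcne2 and Slc4a5 followed the common pattern over a wide range, Kl was the gene that was lowest in the eye relative to the hypothalamus, and Aqp1 left the common pattern on 1 array. RefSeq (GRCm38.p6) gave 9 windows for 5 of the 10 genes, 4 of them for Otx2 and 2 for Kcne2, of which the first is shown. Sequences run 5′ to 3′ on the strand of the gene, all on the + strand of the build, and capitals mark a GC box (GGGCGG or its reverse CCGCCC) or the core of the site bound by Otx and bicoid-type homeodomain proteins (TAATC or its reverse GATTA). The windows are chr16:92292139-92292388 (Kcne2), chr6:83237125-83237374 (Slc4a5), chr5:150952357-150952606 (Kl) and chr6:55336049-55336298 (Aqp1).
Kcne2: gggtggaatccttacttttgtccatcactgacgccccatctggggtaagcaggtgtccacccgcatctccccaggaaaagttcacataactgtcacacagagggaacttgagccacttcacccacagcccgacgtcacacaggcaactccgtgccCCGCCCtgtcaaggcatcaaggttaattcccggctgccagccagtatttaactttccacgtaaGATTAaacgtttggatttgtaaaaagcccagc
Slc4a5: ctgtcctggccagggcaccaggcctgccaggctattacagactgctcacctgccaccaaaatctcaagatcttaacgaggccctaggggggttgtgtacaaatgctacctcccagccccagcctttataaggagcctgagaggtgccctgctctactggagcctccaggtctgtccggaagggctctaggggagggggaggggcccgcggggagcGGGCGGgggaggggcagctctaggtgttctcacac
Kl: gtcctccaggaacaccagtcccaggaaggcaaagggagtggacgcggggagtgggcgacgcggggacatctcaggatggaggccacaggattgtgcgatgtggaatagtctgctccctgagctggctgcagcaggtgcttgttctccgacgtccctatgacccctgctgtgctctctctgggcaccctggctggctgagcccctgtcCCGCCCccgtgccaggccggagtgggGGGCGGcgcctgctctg
Aqp1: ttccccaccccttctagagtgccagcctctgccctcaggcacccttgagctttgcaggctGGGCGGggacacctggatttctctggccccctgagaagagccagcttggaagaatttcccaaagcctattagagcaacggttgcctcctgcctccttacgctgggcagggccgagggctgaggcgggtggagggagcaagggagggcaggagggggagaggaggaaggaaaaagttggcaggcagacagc
A GC box was found in 4 of the 9 windows, those of Aqp1, Kcne2, Kl and Slc4a5 shown here, and in 32.7% of all 32851 windows of this length. The homeodomain core was found in 2 of the 9, of Kcne2 (32 bases before the start) and of Otx2 (210 bases before the start), and in 19.8% of all windows. The longer site TAATCC (reverse GGATTA), which contains the core, was found in 1 of the 9, of Otx2, and in 6.25% of all. A match says only that the letters are present in the window.

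Some hypothalamic arrays stood apart in genes of the anterior pituitary or of the olfactory bulb. Of 15 genes listed for the hypothalamus, 14 were well above background on all 16 arrays. The transcription factor Sim1 was so on 14 and differed by 8.4-fold between arrays. The neuropeptide genes Avp, Oxt, Hcrt and Pmch differed by at most 1.88-fold between arrays, whereas Agrp differed by 2.35-fold, Vip by 2.59-fold and Npy by 3.12-fold. The transcription factor Six6 differed by 7.98-fold and was highest on the array of knockout mouse 1. The summed signal of 11 genes of the anterior pituitary, in units of the 75th percentile, had a median of 8.62 in WT and 8.02 in knockout mice, and was highest on the arrays of WT mouse 5 (49.3) and knockout mouse 1 (1200.0). Growth hormone (Gh) had a log2 signal of 8.21 on the array of knockout mouse 1, of 3.60 on that of WT mouse 5 and at most -3.55 on the 13 arrays other than those of knockout mice 1 and 7 and WT mouse 5. The array of knockout mouse 7 carried genes of the olfactory bulb, a list put together after this was seen, with a summed signal of 42.9 against a median of 1.73 in knockout and a highest value of 1.60 in WT mice. S100a5, a calcium-binding protein of olfactory sensory neurons, stood at 3.54 there and at no more than -6.48 on the 13 other arrays. Results below are given with these 3 arrays and, where they bear on a result, without them. Across all arrays 67.9% to 80.7% of the probes were well above background. The Per3 probe was lower in knockout mice by 0.51 in the hypothalamus on the log2 scale (standard error 0.09, limma adjusted p = 0.067), and whether it lies in the removed stretch was not determined, so it is a weak check of the labels.

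In the hypothalamic block the signals of the 10 genes differed between mice by factors from 2.43 to 639, and the same arrays were high or low for nearly all of them. In the eye each of the genes other than Kl varied by at most 1.76-fold between mice. The probe of each gene with the highest mean hypothalamic signal is described. All 10 of these probes were well above background on all 16 hypothalamic arrays, so that their low values lie above the array background. Whether other cells or cross-hybridisation set those low values was not tested. In tissue blocks, fewer cells of a type and less RNA per cell cannot be told apart.

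**Figure D1:**
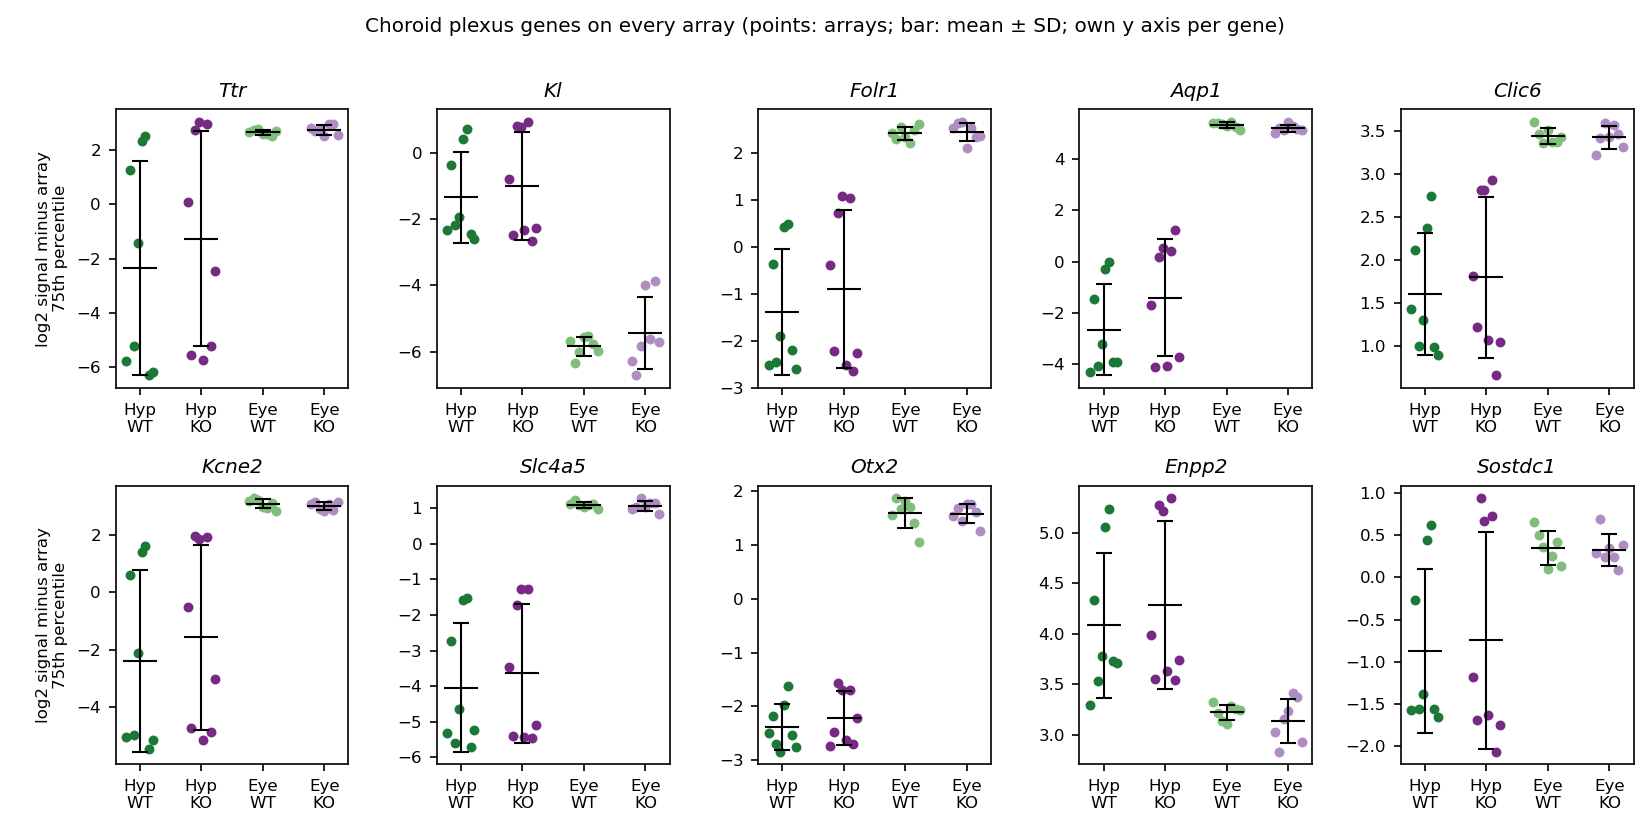
Each panel shows 1 gene on its own y axis (log2 signal minus the array's 75th percentile), with 1 point per array for the hypothalamic block (Hyp) and the eye of WT and knockout (KO) mice and the mean ± SD as bars. The hypothalamic points are widely spread in both genotypes, Ttr from -6.29 to 3.03, whereas the eye points lie close together, Ttr from 2.50 to 2.96.

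The secreted products included the most variable gene. Ttr encodes transthyretin, the carrier of thyroxine and retinol-binding protein that choroid plexus epithelium secretes in large amounts (probe A_51_P194149, mm9 chromosome 18, 20832612 to 20832672). Its log2 signal was lowest at -6.29, had a median of -3.33 and was highest at 2.51 in WT mice, and was -5.72, -1.19 and 3.03 in knockout mice. The lowest array thus had 0.157% of the signal of the highest, a 639-fold range, and among the 27164 probes well above background on all 16 arrays only 1 had a wider range. The median range of those probes was 0.49 on the log2 scale. Ttr was below -5 on 7 arrays (WT 1, 3, 7 and 8 and knockout 2, 5 and 7), where it lay between -6.29 and -5.21. It was intermediate on knockout 8 (-2.46) and WT 4 (-1.44), and on the other 7 arrays it rose from 0.09 on knockout 1 to the highest value, on knockout 4. Both genotypes had arrays at both ends.

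Enpp2, which encodes autotaxin, the secreted enzyme that makes lysophosphatidic acid (A_51_P401974, chromosome 15), had a smaller range of 4.12-fold. Its log2 signals were 3.29, 3.75 and 5.23 (lowest, median, highest) in WT and 3.54, 3.87 and 5.34 in knockout mice. Sostdc1, a secreted antagonist of BMP and Wnt signalling (A_51_P392950, chromosome 12, 37044787 to 37044846), ranged over 8.05-fold, from -1.66 over a median of -1.47 to 0.62 in WT and from -2.07 over -1.41 to 0.94 in knockout mice. On the 7 arrays low in Ttr, Sostdc1 lay between -2.07 and -1.56.

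The receptors Kl and Folr1 had nearly the same range. Kl encodes klotho, the co-receptor for FGF23 (A_52_P439358, chromosome 5, 151795712 to 151795771), and had values of -2.60, -2.04 and 0.73 in WT and -2.67, -1.54 and 0.94 in knockout mice, a 12.2-fold range. Folr1, the folate receptor that carries folate into the cerebrospinal fluid (A_51_P329394, chromosome 7, 109006929 to 109006988), had values of -2.59, -2.05 and 0.49 in WT and -2.63, -1.30 and 1.1 in knockout mice, a 13.3-fold range. The second Folr1 probe followed the first across the 16 arrays (Pearson's r = 0.99). The second Kl probe, well above background on only 6 arrays, had an r of 0.93 with the first. Of the second probes of the other genes, that of Clic6 had an r of 0.99 with the first. That of Slc4a5, well above background on 7 arrays, had an r of 0.66, and that of Enpp2, well above background on none, 0.09.

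Among the channels and transporters, Kcne2 had the widest range of the 10 genes after Ttr. It encodes a subunit of potassium channels that sits in the apical membrane of the epithelium (A_51_P153132, chromosome 16, 92298155 to 92298214), and its values were -5.45, -3.54 and 1.60 in WT and -5.14, -1.76 and 1.96 in knockout mice, a 169-fold range. Slc4a5, a sodium bicarbonate cotransporter (A_51_P403814, chromosome 6, 83253664 to 83253723), had values of -5.72, -4.93 and -1.53 in WT and -5.45, -4.28 and -1.27 in knockout mice, a 21.9-fold range. On each of the 7 arrays with low Ttr, Kcne2 was at or below -4.73 and Slc4a5 at or below -5.23, and on the other 9 both were above these values.

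Clic6, a chloride channel protein (A_52_P447284, chromosome 16, 92541363 to 92541422), ranged over 4.85-fold, with values of 0.90, 1.37 and 2.75 in WT and 0.66, 1.52 and 2.93 in knockout mice. Aqp1, the water channel of the apical membrane (A_51_P125205, chromosome 6, 55298480 to 55298539), had values of -4.31, -3.59 and -0.03 in WT and -4.13, -0.77 and 1.25 in knockout mice. Its highest value was on the array of knockout mouse 7, where Ttr was at -5.23 and Kcne2 at -4.88. On the other 6 arrays with low Ttr, Aqp1 lay between -4.31 and -3.94. This was the array with olfactory bulb genes, and their part in the Aqp1 value was not tested.

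Otx2, the homeodomain transcription factor that choroid plexus epithelium needs to form (A_52_P49080, chromosome 14, 49278096 to 49278155), had the smallest range, 2.43-fold, with values of -2.84, -2.52 and -1.62 in WT and -2.73, -2.35 and -1.56 in knockout mice. Of the 27164 probes, 92.78% had a smaller range than Otx2 and at least 98.08% had a smaller range than each of the other 9 genes. These ranges describe what led to the choice of the genes and carry no test.

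**Figure D2:**
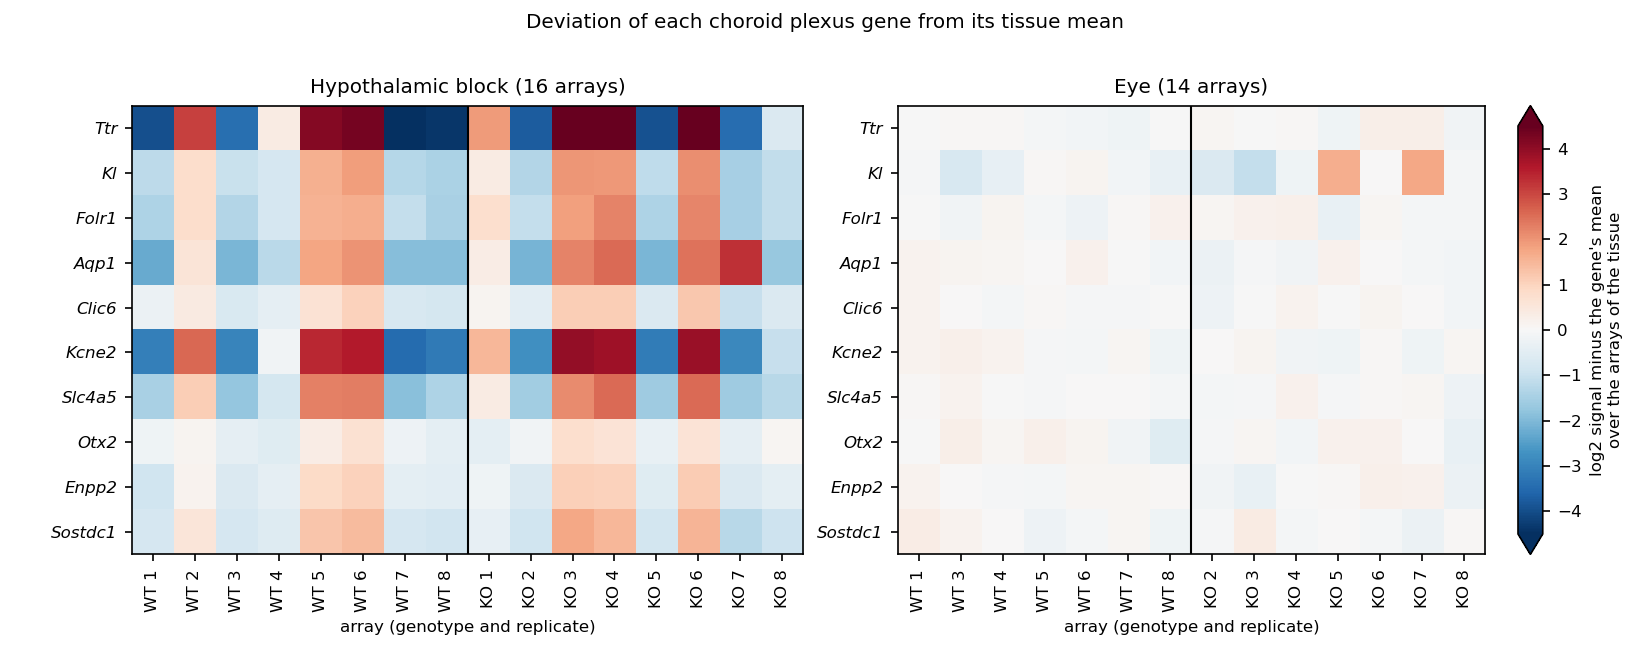
Colours give the log2 signal of each gene (rows) on each array (columns) minus the mean of the gene over the arrays of the tissue, with the hypothalamic block on the left and the eye on the right and deviations beyond the ends of the scale in the end colours. WT 2, 5 and 6 and knockout (KO) 3, 4 and 6 lie above the mean for all 10 genes in the hypothalamus, WT 2 only slightly so for Otx2 and Enpp2. Aqp1 alone is high on KO 7, and in the eye only Kl leaves the pale range.

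The 10 genes varied together between hypothalamic blocks. With the genotype means taken out, the 45 pairwise correlations over the 16 arrays were all positive, with a median Pearson's r of 0.95 (range 0.64 to 1.0) and a median Spearman's rho of 0.89, and 30 of them exceeded 0.9. The arrays of the 2 genotypes gave the same picture when taken alone, with a median r of 0.96 in each. Because these genes were chosen with this pattern in view, and because all points share the array's scaling, these correlations are given as a description. The 75th percentile of the array and the mean standardized deviation of the 10 genes had an r of -0.34, and the number of probes well above background had an r of -0.36.

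Each gene was then set against the mean of the other 9. The correlation was 0.99 for Kl and Slc4a5, 0.98 for Folr1, Enpp2 and Sostdc1, 0.97 for Kcne2 and Clic6, 0.95 for Ttr, 0.87 for Otx2 and 0.76 for Aqp1. Without the array of knockout mouse 7, Aqp1 reached 0.98. When the 2 arrays farthest from the median were left out, 8 of the genes stayed at 0.94 or above, Otx2 had 0.83 and Aqp1 0.69. Without all 3 arrays that carry pituitary or olfactory bulb genes, the median of the pairwise correlations was 0.97 and the lowest was 0.86.

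The sizes of the movements differed between the genes. Per unit of log2 change of Ttr, the fitted change was 0.81 for Kcne2, 0.46 for Slc4a5, 0.39 for Aqp1, 0.37 for Kl and Folr1, 0.27 for Sostdc1, 0.19 for Clic6, 0.18 for Enpp2 and 0.09 for Otx2.

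**Figure D3:**
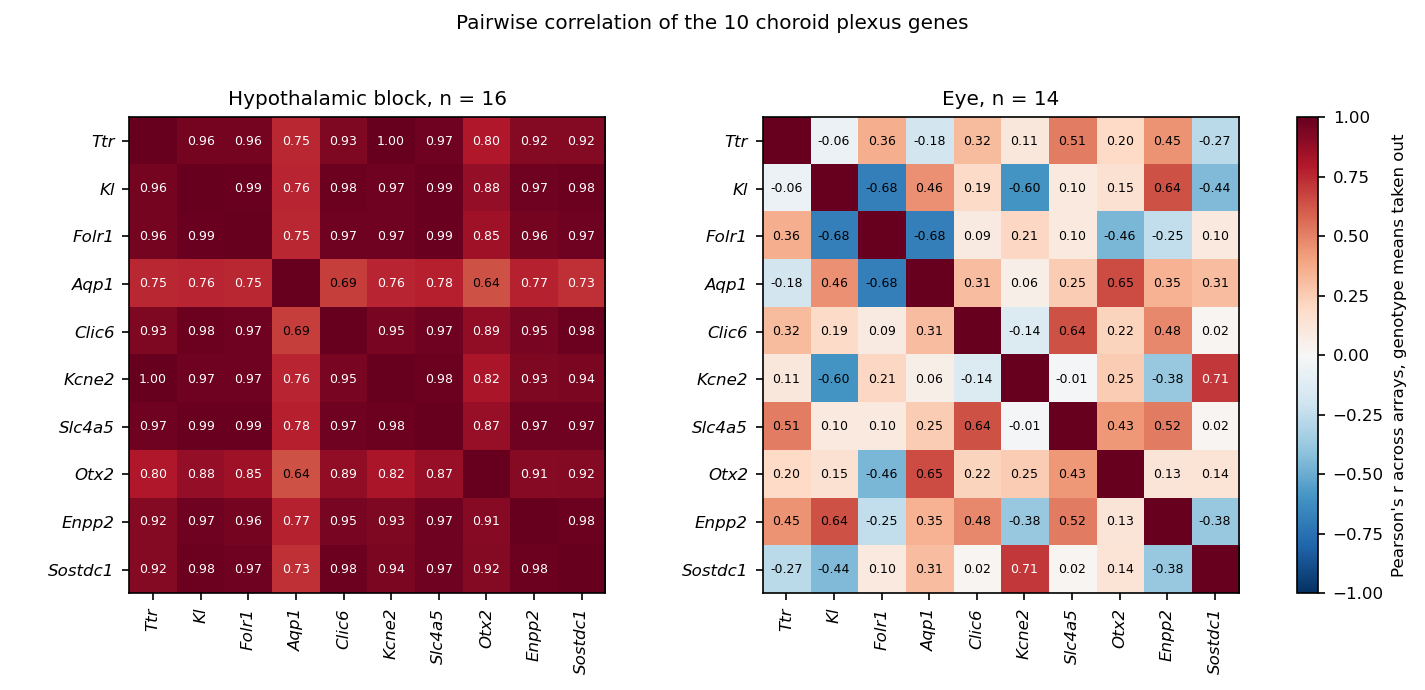
Each cell is Pearson's r between 2 of the genes across arrays with genotype means taken out, for 16 hypothalamic arrays (left) and 14 eye arrays (right). In the hypothalamus all cells are positive with a median of 0.95 and the Aqp1 row is palest, and in the eye positive and negative cells are mixed with a median of 0.14.

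The genes whose pattern across hypothalamic blocks was nearest to that of the 10 included further known genes of the epithelium. Of 27152 other probes well above background on all 16 arrays, 117 (0.431%) had an r above 0.8 with the mean standardized deviation of the 10 genes, and the median over all of them was -0.02. The nearest genes were Steap1, a metalloreductase, Prr32, Cab39l, an adaptor of the LKB1 kinase complex, Wdr86, Trpv4, a cation channel that responds to osmotic stress, Ecrg4, a secreted peptide precursor, and Cldn2, a tight junction claudin, each with an r of 0.99. They were followed by Defb11, a defensin, Tuba1c, an alpha-tubulin, and Vpreb1, known from early B cells, each with an r of 0.98. Their signals differed between arrays by 14.8-fold for Steap1, 19.1-fold for Cldn2 and 8.67-fold for Ecrg4, and by only 1.47-fold for Cab39l.

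A list of 40 other genes of the choroid plexus epithelium, of which 38 were on the array, had a median r of 0.85 with the 10 genes, and 22 of the 38 exceeded 0.8. Of the 31 that were well above background on all 16 arrays, 17 did. Beside those above, they included Tmem72 (0.99), F5, a clotting factor (0.99), Cox8b, a cytochrome oxidase subunit (0.97), Car12, a carbonic anhydrase (0.96), and the angiotensin-converting enzyme Ace (0.95). Tmem72 and F5 were each well above background on 7 of the 16 arrays. The other 16 of the 38 did not exceed 0.8, and the 4 with the lowest correlations were the bicarbonate transporter Slc4a10 (0.02), Lmx1a (0.08), the protease inhibitor Spint2 (0.12) and the serotonin receptor Htr2c (0.19). Slc4a10 and Htr2c were well above background on all 16 arrays and varied by 1.24-fold and 1.65-fold, whereas Lmx1a was well above background on 1 array.

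Markers of other cell types followed less. The 13 genes of the ciliated ependyma had a median r of 0.61 and none exceeded 0.8, the highest being 0.78 for Foxj1, the master regulator of motile cilia, whose signal varied by 1.82-fold. The summed signal of the ependymal list lay between 19.6 and 30.2 in WT and between 19.0 and 36.0 in knockout mice, and its part in the values of the 10 genes was not tested. Of the 14 genes of the leptomeninges 1 exceeded 0.8, lumican (Lum, 0.84), and their median was 0.22. Medians lay between -0.22 and 0.02 for the lists of blood (7 genes), neurons (7), thalamus (7), hypothalamus (15) and anterior pituitary (11), and none of their genes exceeded 0.8. The 8 genes of the olfactory bulb were listed after the array of knockout mouse 7 was seen to be high for them. On that array the mean standardized deviation of the 10 genes was -0.88. None of the 8 had an r above -0.13, which this choice of list favours, so nothing is read from it.

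**Figure D4:**
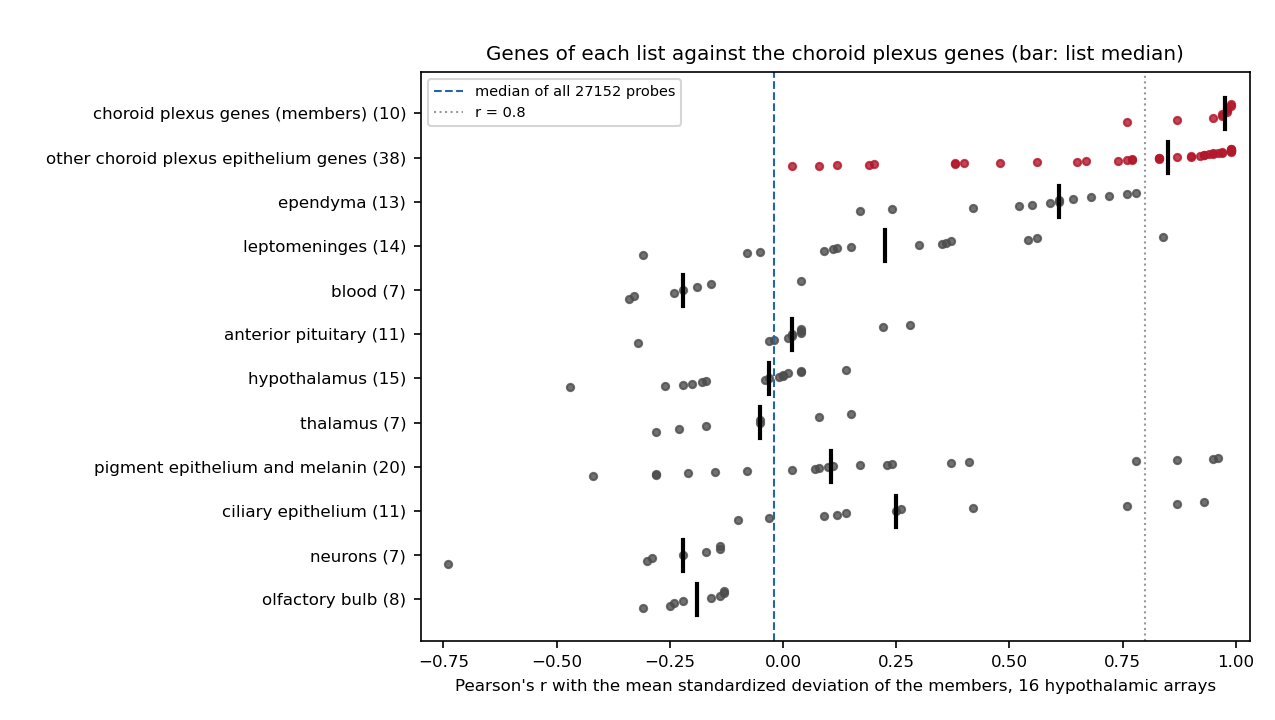
Points are genes, placed by Pearson's r over the 16 hypothalamic arrays with the mean standardized deviation of the 10 choroid plexus genes (of the other 9 for a member), with the list and its number of genes on the y axis, black bars at list medians, a dashed line at the median of all probes (-0.02) and a dotted line at 0.8. The 2 choroid plexus lists lie farthest right, ependyma has a median of 0.61, and 3 genes of the pigment list and 2 of the ciliary list lie beyond 0.8.

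Genes shared with the epithelia of the eye formed a small subset of the pigment list in the hypothalamic block. Of 20 genes of pigment epithelium and melanin, Oca2, a melanosomal transporter, had an r of 0.96, Slc16a8, a lactate transporter, 0.95, and Rdh5, a retinol dehydrogenase, 0.87, while the median of the list was 0.11. Slc16a8 and Rdh5 also stand on the choroid plexus list. Of the 20 genes, 13 were well above background on all 16 hypothalamic arrays, and 4 (Rpe65, Rgr, Rrh and Tyr) on none. Of the 11 ciliary genes, the homeodomain gene Msx1 (0.93), which is also on the choroid plexus list, and C1qtnf5 (0.87) exceeded 0.8.

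In the eye 9 of the 10 genes had steady signals. Among the 27927 probes well above background on all 14 eye arrays, the median range was 0.62 on the log2 scale, and the ranges of 8 of the genes were below it, from 0.39 for Clic6 to 0.59 for Sostdc1, with Otx2 at 0.82. WT signals were 2.65 ± 0.09 for Ttr, 2.43 ± 0.14 for Folr1, 5.35 ± 0.11 for Aqp1, 3.45 ± 0.09 for Clic6, 3.08 ± 0.16 for Kcne2 and 1.09 ± 0.08 for Slc4a5 (mean ± SD, n = 7). They were 1.58 ± 0.28 for Otx2, 3.22 ± 0.08 for Enpp2 and 0.35 ± 0.20 for Sostdc1. Kl was different, with a mean of -5.84 ± 0.29 in WT and -5.44 ± 1.09 in knockout mice, and it was well above background on 12 of the 14 arrays.

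Compared within WT mice, the signal in the eye was higher than in the hypothalamic block for 8 of the 10 genes and lower for 2 (limma, all 4 groups, mouse as random block, adjusted p between 4.5e-18 and 0.0092). Arrays of the 2 tissues with the same genotype and replicate number were taken as 1 mouse, which the labels do not state. Over all probes of these genes, 14 of 15 passed an adjusted p of 0.05, against a background of 75.6% of the 41174 probes (42.1% higher and 33.6% lower in the eye), and nothing is read from that count. The 2 tissues were hybridised on different slides, so tissue and slide cannot be told apart, and the median of all probes was shifted by 0.16 towards the eye. Aqp1 differed most, by 8.02 (standard error 0.74), followed by Kcne2 (5.50, standard error 1.15), Slc4a5 (5.14, standard error 0.67), Ttr (5.02, standard error 1.42), Otx2 (3.97, standard error 0.18) and Folr1 (3.82, standard error 0.55). Clic6 (1.84, standard error 0.30) and Sostdc1 (1.22, standard error 0.41) differed less. Kl was lower in the eye by 4.49 (standard error 0.61) and Enpp2 by 0.86 (standard error 0.28). The second probes of these genes did not show this: that of Enpp2 was higher in the eye by 1.38 (limma adjusted p = 0.033) and that of Kl differed by 0.35 (limma adjusted p = 0.64). Both are dim, the Enpp2 probe being well above background on none of the hypothalamic and 8 of the eye arrays and the Kl probe on 6 and 3.

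Eye and hypothalamic arrays overlapped for Ttr, Enpp2 and Sostdc1 and for none of the other genes. For Folr1, Aqp1, Clic6, Kcne2, Slc4a5 and Otx2, all 14 eye arrays lay above all 16 hypothalamic arrays, and for Kl all 14 lay below. How many of all probes separate in this way was not counted, so nothing is read from the number of genes that did. For Ttr no eye array lay above the highest hypothalamic arrays, since the eye signals of 2.50 to 2.96 were reached by WT 6 and knockout 3, 4 and 6. A two-sided exact sign-flip permutation test used the 7 WT replicate numbers with both tissues, on the assumption that each is 1 mouse. Its p was 0.016 for 8 of the genes, the smallest that 7 pairs allow, 0.031 for Enpp2 and 0.062 for Sostdc1. Sostdc1 was higher in the eye in 5 of 7 pairs. Of the 38 other choroid plexus genes, 26 were higher and 5 lower in the eye at an adjusted p under 0.05, with a median difference of 1.94. The pigment list had 18 of 20 genes higher and 1 lower, with a median of 6.91, and the ciliary list 7 of 11 higher and 4 lower, with a median of 0.63. Over all 41174 probes, 42.1% were higher and 33.6% lower in the eye, and nothing is read from the counts of these 3 lists.

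Across the eyes, where each gene other than Kl varied by at most 1.76-fold, no pattern shared by the 10 genes was seen. Even 2 probes of the same gene followed each other weakly there. The r of the second probe with the first was 0.59 for Folr1, 0.49 for Clic6, 0.44 for Enpp2, 0.20 for Kl and 0.16 for Slc4a5. Measurement noise over a narrow range and a lack of shared variation therefore cannot be told apart. The median pairwise r over the 14 arrays was 0.14 (range -0.68 to 0.71), 32 of the 45 were positive and none exceeded 0.9. With the mean of 20 pigment genes the correlations ranged from -0.05 for Kcne2 to 0.65 for Slc4a5 and 0.61 for Clic6 (median 0.35), and with the mean of 10 ciliary genes from -0.30 for Otx2 to 0.54 for Ttr (median 0.18). With slide means also taken out, the medians were 0.40 and 0.30. Genes were also ranked by their r with Ttr across the eyes, among the 27927 probes well above background on all 14 arrays, member probes aside. The nearest were Lcmt2 (0.93), Ccdc106 (0.91), Marchf9 (0.91), Itpk1 (0.90) and Map3k12 (0.90). None of these stands on any of the lists, and each varied by 1.35-fold to 1.53-fold. The highest of so many correlations over 14 arrays are high by selection alone, so nothing is read from these genes.

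Knockout and WT mice were compared to ask whether loss of Per3 changed these genes. In the hypothalamus none of the 15 probes passed an adjusted p of 0.05 in limma, against a background of 0.0413% of the 41174 probes called. None had an unadjusted p under 0.05, against 1161 of all probes, and nothing is read from these counts. The mean was higher in knockout mice for all 10 genes, with a median of 0.37, but the genes moved together between mice and therefore do not count as 10 observations. The difference was 1.07 for Ttr (standard error 1.87, 95% interval -2.90 to 5.04), 1.25 for Aqp1 (standard error 0.97, -0.82 to 3.32), 0.83 for Kcne2 (standard error 1.51, -2.38 to 4.04) and 0.17 for Otx2 (standard error 0.22, -0.29 to 0.64). The adjusted p was 0.99 for each of the 10 genes. The intervals of Ttr and Kcne2 span several-fold differences in either direction and that of Otx2 is much narrower, and the groups overlapped for every gene.

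The direction in the hypothalamus was not the same on all slides, each of which held 2 arrays of each genotype. On slide 2 all 10 genes had a higher knockout mean, with a median of 2.96, whereas on slide 3 all 10 had a lower one, with a median of -1.23. On slides 1 and 4 the medians were -0.28 and 0.11. Without the 3 arrays that carry pituitary or olfactory bulb genes, the differences of Ttr and Kcne2 were 2.18 and 1.74, and again none of the probes passed. Leaving out single arrays moved the Ttr difference between 0.46 and 1.77. The Aqp1 difference, which includes its high value on the array of knockout mouse 7, moved between 0.87 and 1.63.

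In the eye the genotype differences were small and closely bounded. None of the 15 probes passed an adjusted p of 0.05 or an unadjusted p of 0.05. Of all 41174 probes, 0.0194% were called and 743 had an unadjusted p under 0.05. The differences were 0.10 for Ttr (95% interval -0.08 to 0.27), -0.13 for Aqp1 (-0.29 to 0.02), -0.08 for Kcne2 (-0.26 to 0.11) and 0.40 for the dim Kl (-0.46 to 1.26), and those of the other 6 genes lay between -0.08 and 0.03. The adjusted p was 1 for each. Within the 4 eye slides the median difference of the 10 genes lay between -0.21 and 0.05. An interaction term, which asks whether eye and hypothalamus responded differently, passed for none of the 15 probes, against a background of 0.00486%. None had an unadjusted p under 0.05, against 909 of the 41174 probes. The interaction was -0.99 for Ttr (standard error 2.0) and -1.39 for Aqp1 (standard error 1.04). Leaving out single mice moved that of Aqp1 between -1.82 and -1.01. Of the 38 other choroid plexus genes none was called between genotypes in either tissue.

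**Figure D5:**
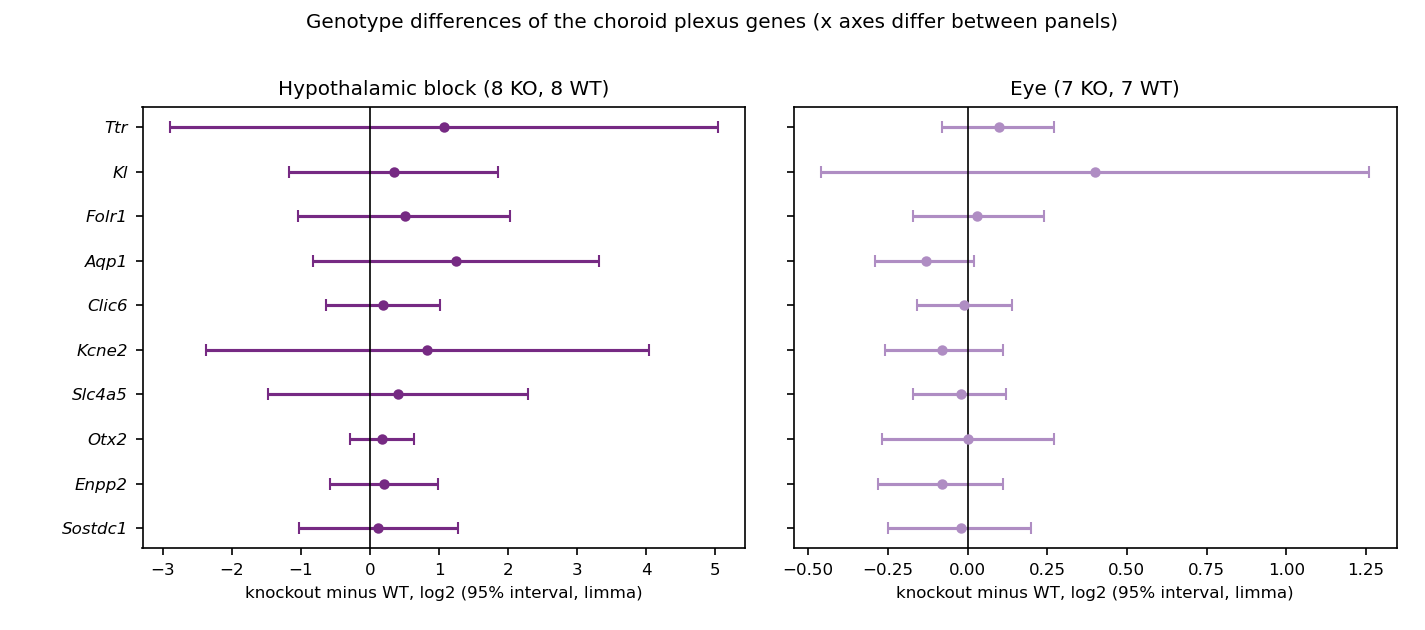
Points give the knockout minus WT difference of each gene on the log2 scale from limma, with 95% intervals, for the hypothalamic block (8 against 8 arrays) and the eye (7 against 7 arrays) on x axes of different width. All hypothalamic points lie above 0 with intervals that cross it, Ttr from -2.90 to 5.04, and the eye intervals are narrow apart from that of Kl.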

How the data were processed

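RNA of hypothalamic blocks and whole eyes had been labelled with Cy3 by the authors, hybridised to Agilent 1-colour arrays and read with Feature Extraction 10.7.1.1. Per the file headers the deposited spot intensities are linear and already corrected for background and spatial trend. The authors also deposited log2 values, which matched the log2 signals used here once every probe was centred on its tissue median (median absolute difference 0.000621 in the hypothalamus and 0.000671 in the eye, column medians -0.073 to 0.08), and these served as an alternative. Here spots marked as outliers or uneven were left out (33 probe signals missing in the hypothalamus, 81 in the eye, none of a member), spots of 1 probe were averaged, and the log2 75th percentile of the array was subtracted. Eye probes were matched to the named hypothalamic probes by identifier. Current names came from the accession for 26918 probes, from the symbol for 5082 and from a synonym for 817, and otherwise from the file for 8357.

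Genotypes were compared within tissues, and tissues in WT mice and the interaction over all 30 arrays (mouse as random block, correlation 0.059), with limma 3.58.1 in R 4.3.3 and Benjamini-Hochberg adjustment over 41174 probes. The mouse was taken from genotype and replicate number, an assumption for arrays of different tissues. Tests are two-sided. The code was tested on simulated data. Correlations used Python 3.11.15 (pandas 2.3.3, numpy 2.4.6; exact tests, scipy 1.17.1). The members and all gene lists were chosen with earlier results of these data known. The named genes were the members, each by its probe of highest mean hypothalamic signal, Per3, the 10 genes nearest to the members in the hypothalamus and the 5 nearest to Ttr in the eye, and up to 4 examples of a list, to which genes past r = 0.8 and the lowest of the choroid plexus list were added after their values were seen. Nothing says that replicate numbers pair mice of the 2 genotypes: deviations of same-numbered mice correlated between -0.204 and 0.396 in the hypothalamus and between 0.00173 and 0.679 in the eye, so the block was kept as an alternative. Alternatives were quantile normalization, normexp background correction (offset 50), only probes well above background, slide or replicate blocks, the methods' t-test, and leaving out each array.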

Additional observations from a re-analysis of the deposited data

How the results depend on the processing

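No member probe passed in the genotype comparison of either tissue, or in the interaction, under any alternative run, including the replicate block (0 of 15 in each tissue), the slide block, the methods' t-test and the arrays left out one at a time. In the eye 1 member probe had an unadjusted limma p under 0.05 with normexp, and 1 when knockout 5, knockout 6 or WT 8 was left out. The replicate block left 5 probes of the whole array called in the hypothalamus, against 17 without it, and 1 in the eye, against 8, and it gave opposite signs for Clic6 (0.05), Otx2 (0.00) and Sostdc1 (0.03) in the eye, all near 0. Deviations correlated best with those of the same number for 1 of 8 hypothalamic pairs and 4 of 6 eye pairs. With normexp, Folr1 in the eye was at -0.01, 10 hypothalamic and 4 eye probes were called over the whole array, and the median difference of all probes was -0.0796 and 0.176. Leaving out single arrays turned the sign in the eye for Clic6 (range -0.04 to 0.02), Folr1 (0.0 to 0.09), Otx2 (-0.09 to 0.05), Slc4a5 (-0.06 to 0.01) and Sostdc1 (-0.08 to 0.03), and in the hypothalamus for Sostdc1 (-0.12 to 0.33). The interaction changed sign for Kl (-0.44 to 0.53, and -0.45 without the 3 arrays with pituitary or olfactory bulb genes) and Sostdc1 (-0.38 to 0.07). The 14 probes called between tissues were 13 with quantile normalization and with normexp, and 13 or 14 when a mouse was left out. Quantile normalization placed the median of all probes at -0.0718 in place of 0.156 and the calls at 14451 higher and 16774 lower in the eye in place of 17328 and 13817. The median pairwise correlation lay between 0.94 and 0.97 in the hypothalamus and between 0.12 and 0.17 in the eye when single arrays were left out. Over the 9 hypothalamic arrays with Ttr above -4 the median was 0.98, and over the 7 with Ttr below -4 it was -0.08. This split on a member's own value narrows the shared range by construction, so that nothing is read from it. The exact sign-flip test over mice, added after the data were seen, gave a mean of 1.30 for Sostdc1 at p = 0.062. The number of arrays and the spread between blocks limit the hypothalamic comparison, and for Kl in the eye the signal over background does.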
